A study of Mus musculus with 24 samples.

Results

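Grem1, Bmp7, Bmp4, Id1, Id2, Id3, Id4, Smad6 and Smad7 were followed in kidney, 9 of the 19399 genes in the table. They encode a secreted antagonist, a pair of ligands, the ID target genes and the inhibitory SMADs of bone morphogenetic protein (BMP) signalling. The members were selected on the response to water deprivation in these same mice, at least through the higher Grem1 and the lower Id1 and Id4, so that response is given below as a description without a test.

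The animals were C57BL/6J mice, an inbred laboratory strain, aged 10 weeks, and a piece of kidney from each gave 1 library of polyadenylated RNA. The groups were 7 males and 5 females without water, and 6 males and 6 females with free access to water. All had food, and no mutation or drug is named for any group. Deprived mice went 9 to 11 h without water before kidneys were taken around midnight, 6 h into the active period, though the clock time given for removing the water does not fully match these hours. Since the mice were sampled at 1 time, the labels give no course of the response. The title of deprived female 5 places it among the deprived mice while its treatment label reads free access. That mouse counts as deprived here, and values without it are given where they bear on a result.

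BMPs bind paired receptor kinases at the cell surface, which phosphorylate SMAD1, SMAD5 and SMAD9. These join SMAD4 and enter the nucleus, where the Id genes are among their most direct targets. ID proteins lack a DNA-binding region and block helix-loop-helix transcription factors by pairing with them, while SMAD6 and SMAD7, themselves induced by the pathway, restrain it. GREM1 (gremlin) binds BMPs outside the cell and keeps them from their receptors. In the developing kidney gremlin is needed for outgrowth of the ureteric bud, and BMP7 for the survival of nephron progenitors.

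Libraries held 14411843 to 29398960 reads assigned to genes. In 4 of them, deprived males 6 and 7, deprived female 1 and watered female 6, the share of reads of 1 gene without a name (ENSMUSG00000119584) was 1.07% to 2.86%, compared with 0.268% to 0.850% elsewhere. Many results, though not all, are given with and without these libraries. Correlations and levels per length are not given without these 4. Kidney markers were present in all groups, the 9 proximal tubule markers summing to between 231784 and 398152 normalized counts, and of 6 adrenal cortex markers only Star was in the table. Whole tissue was sequenced, so fewer cells of a type and less RNA per cell cannot be told apart.

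The stretch before the start site is shown for Grem1, Id3 and Id4, since the results turn on Grem1, the antagonist, and on these ID targets. Sequences are from RefSeq on GRCm38.p6, whose promoter table matched 6 of the 9 members, Grem1, Bmp4, Id2, Id3, Id4 and Smad6. Each run is the 250 bases before the RefSeq start site, read 5′ to 3′ on the gene's strand, and capitals mark GGCGCC or CAGAC (on either strand, GTCTG being the reverse), letters known to be bound by SMAD proteins. The Grem1 stretch is chr2:113758649-113758898 on the minus strand, the Id3 stretch chr4:136143572-136143821 on the plus strand and the Id4 stretch chr13:48260866-48261115 on the plus strand. In the GENCODE annotation the Id3 gene begins earlier and covers the Id3 stretch.
Grem1: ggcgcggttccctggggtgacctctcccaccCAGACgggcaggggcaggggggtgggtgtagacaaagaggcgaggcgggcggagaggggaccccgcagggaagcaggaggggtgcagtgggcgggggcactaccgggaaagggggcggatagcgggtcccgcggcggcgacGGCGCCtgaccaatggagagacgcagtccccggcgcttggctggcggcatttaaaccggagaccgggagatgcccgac
Id3: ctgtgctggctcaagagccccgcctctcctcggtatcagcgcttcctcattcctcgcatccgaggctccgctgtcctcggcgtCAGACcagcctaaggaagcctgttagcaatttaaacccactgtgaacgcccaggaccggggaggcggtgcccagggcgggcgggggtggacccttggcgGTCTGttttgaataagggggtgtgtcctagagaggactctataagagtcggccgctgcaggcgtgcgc
Id4: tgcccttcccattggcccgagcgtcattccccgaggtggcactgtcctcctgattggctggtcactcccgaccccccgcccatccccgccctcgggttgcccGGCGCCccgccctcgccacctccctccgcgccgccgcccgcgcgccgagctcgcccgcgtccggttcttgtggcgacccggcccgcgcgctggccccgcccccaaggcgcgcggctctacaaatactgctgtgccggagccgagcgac

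GGCGCC began 78 bases before the start site in Grem1, 148 bases before it in Id4 and 231 bases before it in Id2, and 9.59% of all 32851 mouse promoters of this length held it. CAGAC or its reverse began 219 bases before the start site in Grem1, and 167 and 68 bases before it in Id3, with 42.2% of all promoters holding it. The E-box CANNTG, the letters of helix-loop-helix factors, was found 3 times in Bmp4 and once, as CAGCTG, in Id2, against 66.2% of all promoters with at least 1. As for Id3, the Id2 gene begins earlier in the GENCODE annotation and covers the Id2 stretch. No capitals overlap each other. The Grem1, Id3 and Id4 stretches were 72%, 62.8% and 75.6% G and C, above the median of 52.4% over all promoters, and GC-rich motifs are found more easily in such sequence. A match of letters is a description and not a bound site.

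Grem1, on chromosome 2 (113746164 to 113758646, minus strand, GRCm38), was near the floor in watered kidneys and was read in every deprived one at levels above all watered mice of its sex. In deprived males its normalized count, which is the authors' read count divided by a size factor for the library, had a lowest value of 20.6, a median of 43.9 and a highest of 64.5, against a lowest of 1.00, a median of 3.29 and a highest of 11.1 in watered males. In deprived females it was 20.5, 37.7, 36.6, 28.8 and 21.2, against a lowest of 0.995, a median of 5.09 and a highest of 7.46 in watered females. The groups did not overlap in either sex, and deprived female 5, whose labels disagree, had 21.2 and so lay above every watered female. These values rest on 18 to 58 reads in deprived males, 16 to 45 in deprived females, and 1 to 10 in watered mice of each sex.

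The log2 change of Grem1 on the scale of log2(normalized count + 1) was 3.22 ± 0.38 (SE) in males (n = 7 and 6) and 2.47 ± 0.41 in females (n = 5 and 6). Group means were 42.0 ± 14.7 and 4.34 ± 3.84 in deprived and watered males, and 29.0 ± 8.16 and 4.78 ± 2.31 in deprived and watered females (SD). The added 1 shrinks changes of a gene this low. With 5 added in its place, the male change was 2.36. Without the 4 libraries that stand apart the changes were 3.33 ± 0.39 in males and 2.68 ± 0.44 in females, and without deprived female 5 the female change was 2.56.

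**Figure D1:**
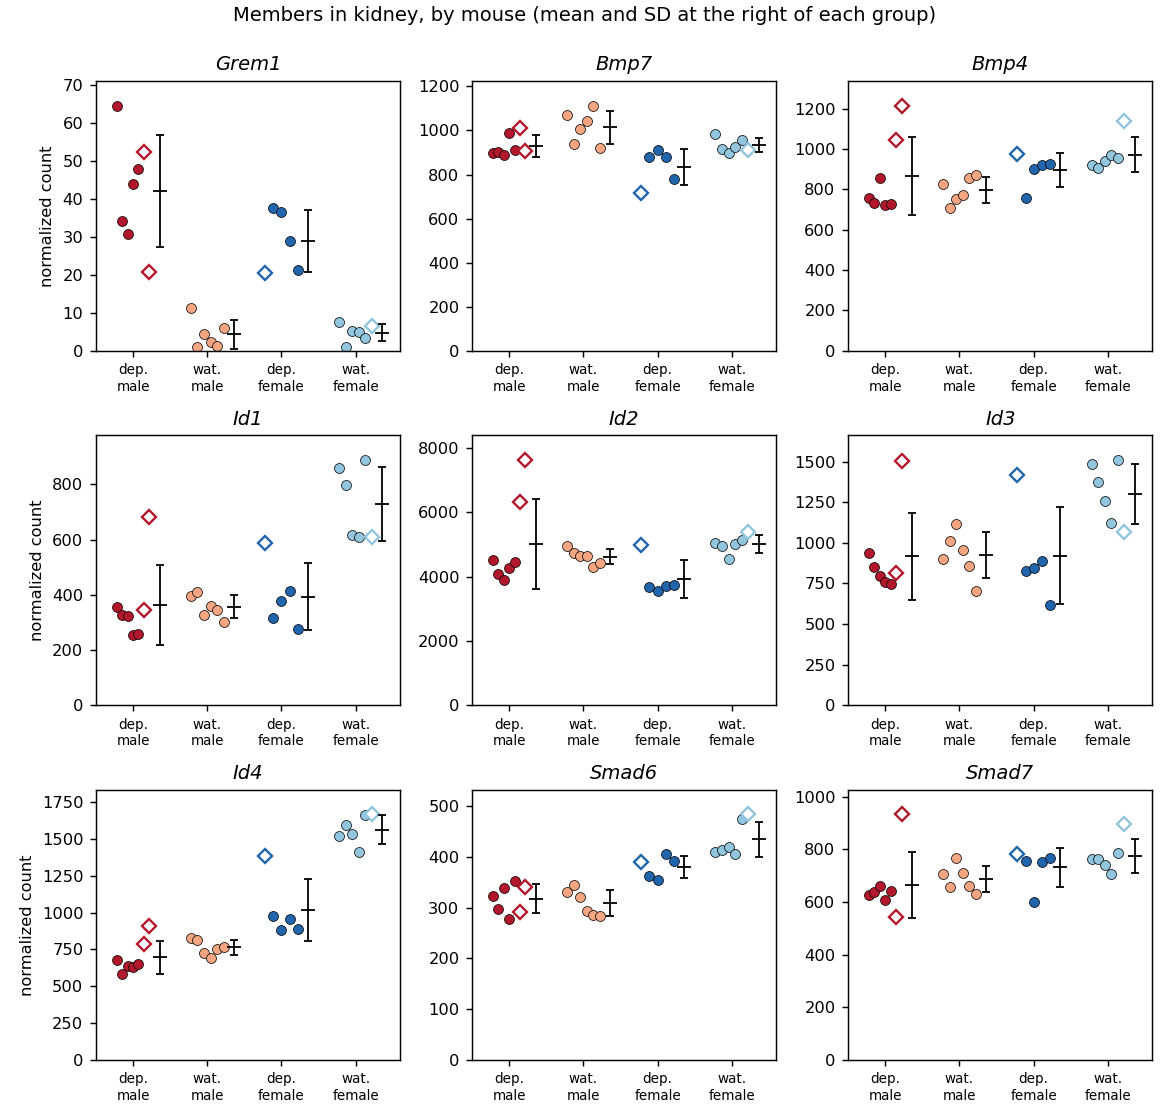
Normalized count (vertical axes, from 0) of each member in every mouse, with groups along the horizontal axes (dep., deprived, and wat., watered). Circles are mice, open diamonds the 4 libraries that stand apart, and the bar at the right of each group is its mean with SD. All 12 deprived mice lie above the watered mice of their sex for Grem1, and all 5 deprived females lie below the 6 watered females for Id1 and Id4.

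The ligands differed little between deprived and watered mice. Bmp7, which the tubules of the adult kidney make, is on chromosome 2 (172868012 to 172940321, minus strand). Its normalized counts had a lowest value of 890.2, a median of 905.9 and a highest of 1013 in deprived males, against 921.5, 1024 and 1113 in watered males. In deprived females it was 716, 879.4, 912.4, 879.9 and 780.5, against a lowest of 898.3, a median of 920.6 and a highest of 983 in watered females. Deprived mice were lower on average but overlapped watered mice in both sexes, with log2 changes of -0.12 ± 0.06 in males and -0.17 ± 0.06 in females.

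Bmp4, a ligand that shapes the ureter and collecting system, is on chromosome 14 (46383520 to 46390669, minus strand). In deprived males its normalized counts ran from 723.6 through a median of 756.8 to 1215, against 707, 800.2 and 872.9 in watered males. The highest, 1215 and 1044, were those of deprived males 7 and 6, both among the libraries that stand apart. Deprived females had 974.7, 756.2, 900.5, 922.2 and 925, against a lowest of 905.6, a median of 948 and a highest of 1140 in watered females. The log2 change was 0.09 ± 0.10 in males and -0.12 ± 0.11 in females, with overlap in both, and the male value was -0.07 without the 4 libraries. Exons of Bmp4 share 89 bases with Gm15217 on the opposite strand, and whether reads were counted by strand is not stated.

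Among the ID targets, Id1 and Id4 were lower in every deprived than in every watered female. Id2 and Id3 had lower means in deprived females with overlapping groups, and neither was called in the main fit of 24 libraries. Of 12 alternative settings, Id2 was called in 4 and Id3 in 3. Log2 changes in males lay between -0.14 and 0.08. Id1 is on chromosome 2 (152736251 to 152737410, plus strand). In deprived females its normalized counts were 587.9, 316.6, 376, 414.5 and 274.6, against a lowest of 608.1, a median of 706.7 and a highest of 888.2 in watered females. All deprived females lay below all watered ones, though deprived female 1, a library that stands apart, was close to the lowest of them. In deprived males the lowest, median and highest were 252.8, 325.4 and 680.3, against 302.5, 352.3 and 412 in watered males. The male groups overlapped, and the highest value was that of deprived male 7, which also stands apart.

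The log2 change of Id1 was -0.04 ± 0.18 in males and -0.92 ± 0.20 in females. Without the 4 libraries it was -0.24 ± 0.13 in males and -1.12 ± 0.14 in females. Without deprived female 5 the female change was -0.80, and it was -0.60 with that mouse counted as watered. The levels of deprived males (363.0 ± 145.6), watered males (356.9 ± 41.8) and deprived females (393.9 ± 121.0) lay close to each other, while watered females stood at 729.4 ± 133.1 (SD, n = 7, 6, 5 and 6).

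Id4, on chromosome 13 (48261228 to 48266026, plus strand), had 1382, 977.3, 882.7, 955.7 and 889.4 normalized counts in deprived females, against a lowest of 1408, a median of 1563 and a highest of 1667 in watered females. The groups did not overlap, and deprived female 1 stood near the watered range while the other 4 were at 977.3 or below. In males the lowest, median and highest were 584.5, 648.7 and 907 in deprived mice, against 689.4, 759.7 and 824.6 in watered mice. Only deprived males 6 and 7, which stand apart, had values within or above the watered male range, and without the 4 libraries the male groups did not overlap either. Log2 changes were -0.14 ± 0.10 in males and -0.64 ± 0.10 in females, and -0.26 ± 0.05 and -0.74 ± 0.06 without the 4 libraries. Exons of Id4 share 82 bases with A330033J07Rik and 171 bases with Gm49291, both on the opposite strand. These averaged 4.33 and 36.1 normalized counts in deprived females and 8.91 and 58.1 in watered females, far below Id4 itself.

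Id3, on chromosome 4 (136143497 to 136145755, plus strand), had 1420, 827.4, 846.1, 888.6 and 617.6 normalized counts in deprived females, against a lowest of 1065, a median of 1315 and a highest of 1510 in watered females. Deprived female 1 alone reached the watered range. In males the lowest, median and highest were 746.1, 814.5 and 1504 in deprived mice, against 704.8, 929.1 and 1114 in watered mice, the highest being deprived male 7 again. The log2 change was -0.04 ± 0.16 in males and -0.54 ± 0.17 in females, and -0.17 ± 0.12 and -0.77 ± 0.13 without the 4 libraries. Counting deprived female 5, the lowest of its group at 617.6, as watered made the female change -0.26.

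Id2, the most abundant ID gene per length, is on chromosome 12 (25093799 to 25097140, minus strand). Deprived females had 4990, 3661, 3542, 3698 and 3729 normalized counts, against a lowest of 4557, a median of 5030 and a highest of 5394 in watered females. Of the deprived females 4 lay below every watered one, and deprived female 1 lay among them. Deprived males ran from 3892 through a median of 4442 to 7621, against 4286, 4648 and 4943 in watered males, with 6327 and 7621 in deprived males 6 and 7. Changes on the log2 scale were 0.08 ± 0.12 in males and -0.36 ± 0.13 in females, and -0.12 ± 0.04 and -0.43 ± 0.05 without the 4 libraries.

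**Figure D2:**
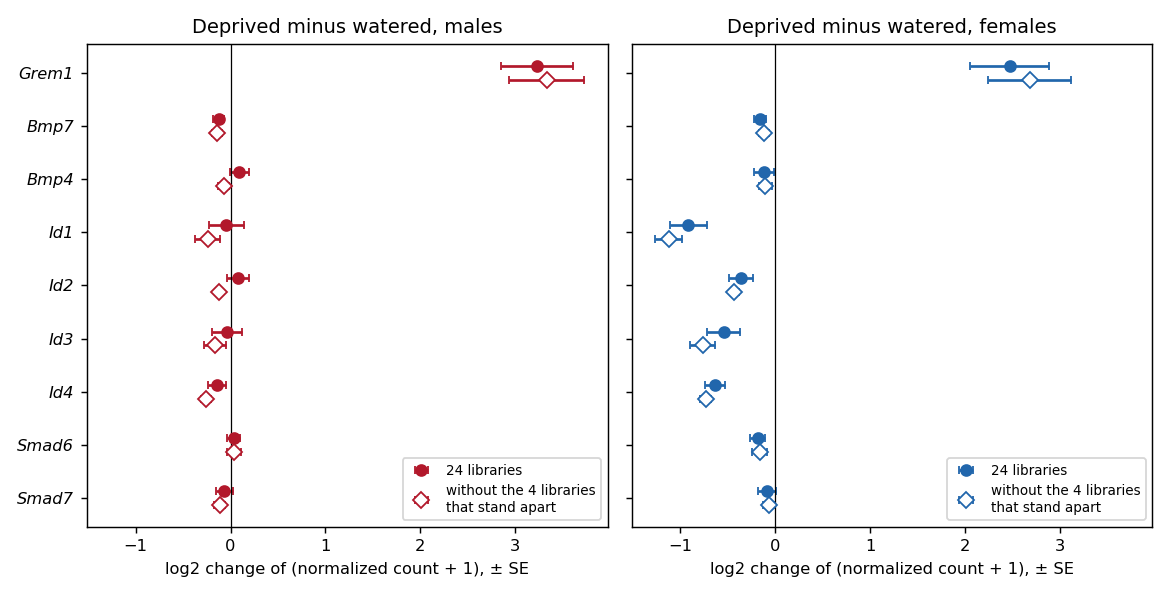
Log2 change between deprived and watered mice (horizontal axes, of normalized count + 1, with SE) for each member, males at the left and females at the right. Filled circles are from all 24 libraries and open diamonds are without the 4 that stand apart. Grem1 lies at 3.22 in males and 2.47 in females, and the ID genes lie left of 0 in females, from -0.36 to -0.92.

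The inhibitory SMADs had log2 changes between -0.19 and 0.03, with overlapping groups. Smad6, on chromosome 9 (63953076 to 64022059, minus strand), ran from 277.3 through a median of 322.5 to 352.1 normalized counts in deprived males, against 282.6, 307.2 and 345 in watered males. In deprived females it was 389.4, 362.6, 354.3, 405.9 and 391.6, against a lowest of 405.1, a median of 416.6 and a highest of 483.7 in watered females, the groups overlapping by deprived female 4 alone. Log2 changes of Smad6 were 0.03 ± 0.07 in males and -0.19 ± 0.08 in females.

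Smad7, on chromosome 18, ran from 543 through a median of 637 to 932.2 normalized counts in deprived males, against 630.2, 682.8 and 766.6 in watered males. Deprived females had 781.3, 756.2, 600.7, 752.3 and 766.1, against a lowest of 707.1, a median of 763.4 and a highest of 896.9 in watered females. Both extremes of the deprived males, 543 and 932.2, were in deprived males 6 and 7, and the groups overlapped in both sexes. Its log2 changes were -0.07 ± 0.09 in males and -0.09 ± 0.10 in females.

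Members were counted as called where limma gave an adjusted p below 0.05 over all 17592 tested genes, and all 9 were tested. In males 1 of the 9 was called (Grem1, higher), where 0.227% of all tested genes were called. In females 3 were called (Grem1 higher, Id1 and Id4 lower), where 0.790% of genes were called, and for the mean of both sexes 2 were called (Grem1 and Id4), where 1.64% of genes were. Deprived and watered mice did not overlap for the same 1 member in males and the same 3 in females, against 0.529% and 2.48% of all tested genes. Without the 4 libraries 2 members were called in males (Grem1 and Id4) and 5 in females (Grem1, and Id1 to Id4), the share over all genes being 0.807% and 4.21%. The groups then did not overlap for 2 members in males and 5 in females, against 1.63% and 8.98% of all genes. The female calls were sensitive to single mice. With deprived female 5 counted as watered limma called 0 of the 9 in females, 5 having an unadjusted p below 0.05, where 0.0114% of all genes were called. The call of Id1 in females was lost in 6 of 24 fits that left out 1 library, watered females 1, 2 and 5 and deprived females 2, 3 and 5 in turn. As these contrasts helped to choose the members, nothing is read from the counts.

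The male minus the female response is built from the same deprivation responses that helped to choose the members, so it too is a description from which nothing is read. This difference was positive for all 9 members, 5 of which had an unadjusted limma p below 0.05, but none of the 9 passed after adjustment. Limma called 0.00% of genes here, 1248 of 17592 having an unadjusted p below 0.05, while DESeq2 called 30 genes and edgeR 0. The largest were 0.87 ± 0.27 for Id1, 0.76 ± 0.56 for Grem1, 0.50 ± 0.24 for Id3 and 0.49 ± 0.14 for Id4. Without the 4 libraries Id4 alone of the members passed, at 0.47 ± 0.08, where 0.0512% of genes were called. These values do not show a difference between the sexes that is independent of how the members were chosen.

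Levels of the sexes were compared within each water group. The choice of members did not use this contrast, but it shares its mice with the deprivation responses. Choosing Id1 and Id4 as lower in deprived than in watered females favours high values in watered females and low ones in deprived females. Their sex differences are therefore given without a p-value, and those of the other members are not fully independent of the choice. In watered mice 5 of the 9 were called, all lower in males, Id1 and Id4 among them, and the share of all tested genes called was 30.5%. Because this count includes Id1 and Id4, nothing is read from it. Watered males had 763.0 ± 52.0 normalized counts of Id4 and watered females 1565 ± 99.1, a log2 difference of -1.04 ± 0.10. For Id1 it was -1.02 ± 0.19, with 356.9 ± 41.8 in watered males and 729.4 ± 133.1 in watered females. Every watered male lay below every watered female for both genes.

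Smad6 was also lower in watered males, by a log2 difference of -0.49 ± 0.07 (limma adjusted p = 6.3e-06), with 309.7 ± 26.0 against 434.5 ± 35.3 normalized counts and no overlap. Id3 differed by -0.50 ± 0.17 (limma adjusted p = 0.024), at 924.4 ± 139.7 in watered males against 1302 ± 186.4 in watered females, with overlap. That call was lost without watered male 6, watered female 1 or watered female 5, at -0.42 to -0.45, and with deprived female 5 counted as watered, at -0.34. Bmp4 differed by -0.28 ± 0.10 (limma adjusted p = 0.041), at 798.0 ± 64.3 in watered males and 972.3 ± 85.4 in watered females, without overlap. It missed the threshold in 8 of 24 fits that left out 1 library, watered males 1 to 4 and watered females 3 to 6 in turn, the adjusted p reaching 0.11. Grem1, Bmp7, Id2 and Smad7 did not pass, at -0.27 ± 0.39, 0.12 ± 0.06, -0.12 ± 0.12 and -0.17 ± 0.09.

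In deprived mice 4 members were called, Id4 among them, where 33.1% of all tested genes were. Nothing is read from this count either, as it includes Id4. Id4 was lower in deprived males, at 696.1 ± 112.7 against 1017 ± 207.9 normalized counts in deprived females, a log2 difference of -0.54 ± 0.10. Smad6 was lower in each deprived male than in each deprived female, at 317.3 ± 28.7 and 380.8 ± 21.5, a difference of -0.27 ± 0.07 (limma adjusted p = 0.006). Id2 and Bmp7 were higher in deprived males, by 0.33 ± 0.12 and 0.16 ± 0.06 (limma adjusted p = 0.041 and 0.043), and the groups overlapped for both. Without the 4 libraries Id2 passed at 0.21 and Bmp7 did not, at 0.09, and leaving out single mice lost either call. For Id2 these were deprived males 6 and 7 and deprived females 2 to 5 (adjusted p up to 0.1), and for Bmp7 among others deprived males 4 and 6 and deprived females 1 and 5 (adjusted p up to 0.15). Bmp4 and Smad7 did not pass in the main fit of 24 libraries, at -0.07 ± 0.11 and -0.15 ± 0.09. Both passed as lower in deprived males without the 4 libraries, at -0.20 ± 0.06 and -0.17 ± 0.06 (limma adjusted p = 0.011 and 0.032), with overlap. For Id3 the difference between deprived males and deprived females was 0.01 ± 0.17 and for Grem1 0.49 ± 0.40, neither passing, and for Id1 it was -0.14 ± 0.19.

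**Figure D3:**
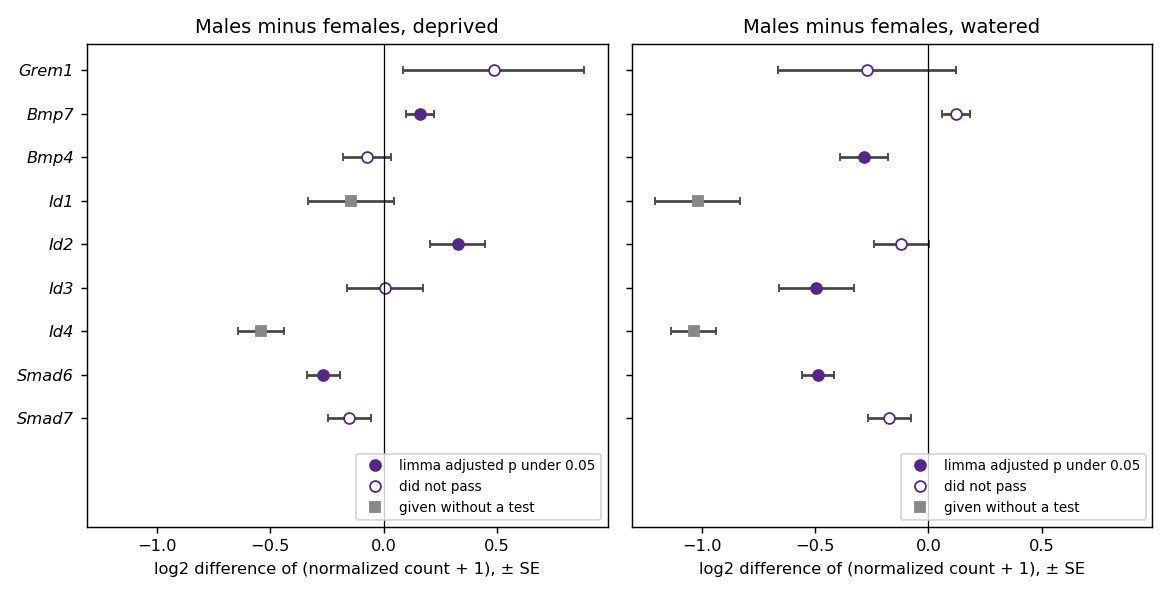
Log2 difference between males and females (horizontal axes, of normalized count + 1, with SE) for each member, deprived mice at the left and watered mice at the right. Filled circles passed limma's adjusted p of 0.05, open circles did not, and the squares of Id1 and Id4 are given without a test. Id1 lies at -0.14 in deprived and at -1.02 in watered mice, and Id4 at -0.54 and -1.04.

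Per length of exon, so that genes can be compared, Id2 stood highest and Grem1 lowest in every group. Id2 averaged 2061 normalized counts per kb in deprived males, 1893 in watered males, 1610 in deprived females and 2057 in watered females. Id1, Id3, Bmp4, Id4, Bmp7, Smad7 and Smad6 fell between 96.6 (Smad6 in watered males) and 726.8 (Id3 in watered females). Grem1 averaged 10.1 ± 3.55 in deprived males against 1.05 ± 0.93 in watered males, and 6.98 ± 1.97 in deprived females against 1.15 ± 0.56 in watered females (SD), so that its deprived level remained below that of each other member. Neighbours in this order often lay within each other's spread, such as Bmp4 at 384.7 ± 85.8 and Id1 at 312.9 ± 125.6 in deprived males.

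**Figure D4:**
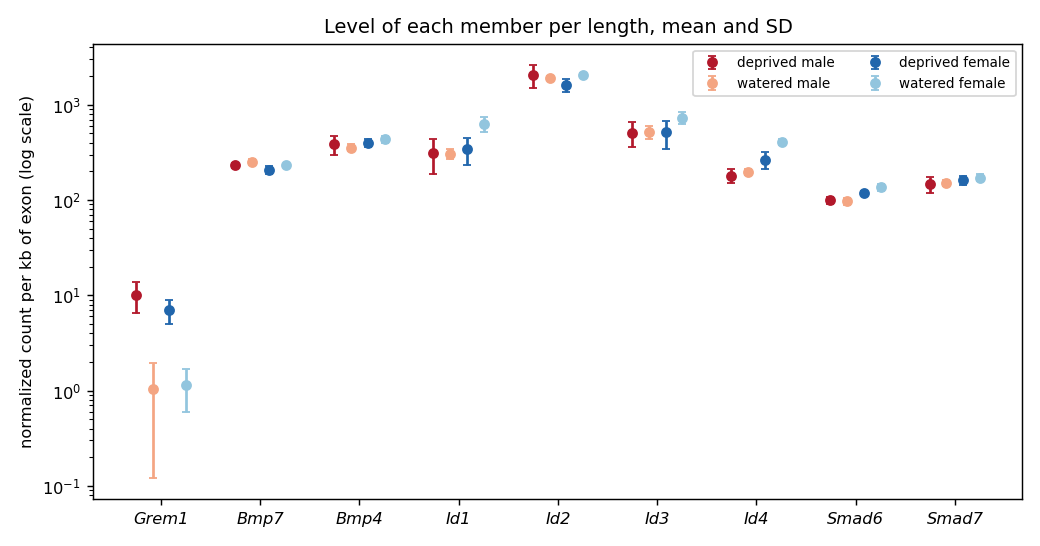
Normalized count per kb of exon (vertical axis, log scale) of each member, as group mean with SD over 7 deprived males, 6 watered males, 5 deprived females and 6 watered females. Id2 lies highest, between 1610 and 2061, and Grem1 lowest, between 1.05 and 10.1.

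Mice of 1 group also differed among themselves, a spread that did not choose the members. Over 24 relations of Id1 with the other members, in the 3 groups of at least 6 mice, only that of Id1 with Id3 in deprived males passed adjustment. Pearson's r was 0.973 (exact permutation p = 0.00119, adjusted p = 0.0286) and Spearman's rho 0.929 (exact permutation p = 0.00675, adjusted p = 0.162) over 7 deprived males. Leaving out the 2 males farthest from the median of Id1, r was 0.811. In watered females r of Id1 with Id3 was 0.938 and rho 0.943 (exact permutation p = 0.0194 and 0.0167, adjusted p = 0.156 and 0.2, n = 6), and without the 2 farthest mice r was 0.823. In watered males r was 0.427 and rho 0.371 (exact permutation p = 0.401 and 0.497, adjusted p = 0.688 and 0.836, n = 6), with an r of -0.613 without the 2 farthest mice.

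Relations of Id1 with Grem1 within groups did not pass. In deprived males r was -0.644 and rho -0.036 (exact permutation p = 0.118 and 0.963, adjusted p = 0.315 and 1, n = 7), and without the 2 farthest males r was 0.184. With any 1 male left out, r ran from -0.815 to 0.15, so that leaving out a single male could change its sign. In watered females r was -0.33 and in watered males -0.2 (exact permutation p = 0.604 and 0.679, adjusted p = 0.806 and 0.815, n = 6 each). In these, Spearman's rank coefficient was -0.143 and -0.371 (exact permutation p = 0.803 and 0.497, adjusted p = 0.876 and 0.836). Without the 2 farthest mice r was -0.987 in watered females and 0.611 in watered males, where Grem1 rests on 1 to 10 reads. Relations of Id1 with Id2, Id4, Smad7 and Bmp4 in deprived males had r between 0.791 and 0.84 with all 7 males. Without the 2 farthest r fell to between -0.373 and 0.439, though taking out the extremes of Id1 also narrows its range. With any 1 male left out, the lowest r was 0.31 for Id2, 0.376 for Id4, 0.532 for Bmp4 and -0.201 for Smad7.

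**Figure D5:**
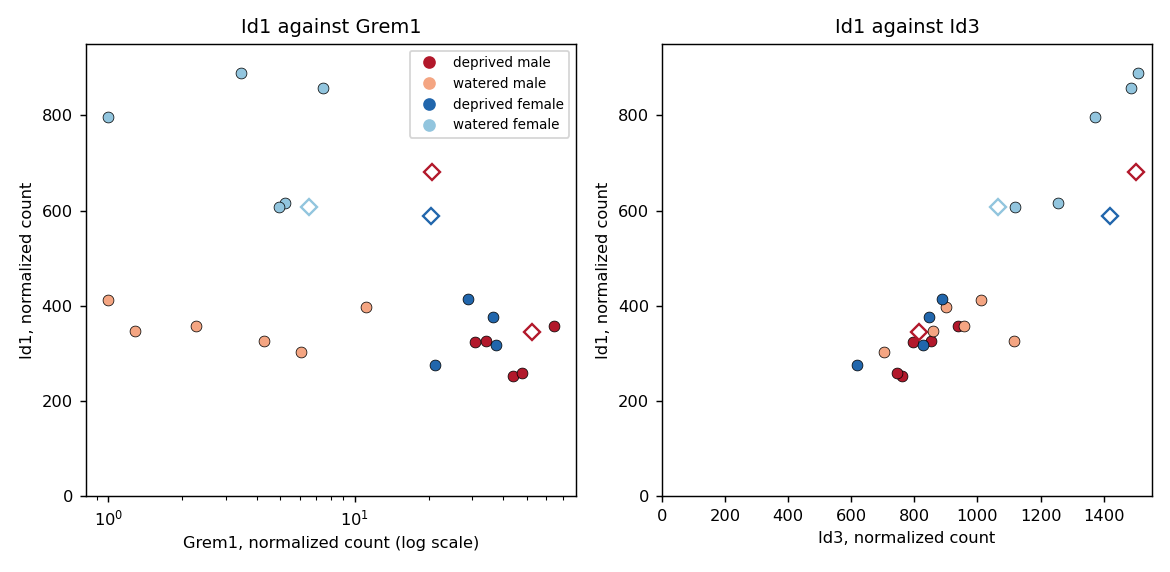
Normalized count of Id1 (vertical axes) against Grem1 (left, log scale) and Id3 (right) in each of 24 mice, coloured by group, with open diamonds for the 4 libraries that stand apart. Deprived mice all lie right of 20 on the Grem1 axis, watered females lie above 600 for Id1, and Id1 and Id3 are high in the same mice.

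Other genes of BMP and transforming growth factor beta signalling were taken as ligands, antagonists, receptors, SMADs, further targets and the E proteins that ID proteins bind. Of 91 such genes 83 were in the table and 82 were tested. The count called was 1 higher and 0 lower in males, in females and in the mean of both sexes, where 0.227%, 0.790% and 1.64% of all genes were called. At an unadjusted limma p below 0.05 there were 13, 6 and 17. The median log2 change of the 82 was -0.02 in males and 0.06 in females, beside 0.00 and -0.02 over all tested genes. Without the 4 libraries 2 were called higher in males, and 2 higher and 1 lower in females. Limma then called 0.807% of the 17592 tested genes for males and 4.21% for females, counting both directions.

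None of the receptors and signal carriers named next passed the test in the main fit of 24 libraries. Bmpr1a, a type I receptor, had 1250 ± 115.1 normalized counts in deprived males against 1286 ± 50.1 in watered males, and 1340 ± 66.2 in deprived females against 1278 ± 74.5 in watered females (SD). The type II receptor Bmpr2 had log2 changes of 0.11 ± 0.05 in males and 0.06 ± 0.05 in females (limma adjusted p = 0.41 and 0.86). Changes of the receptor-activated Smad1 were 0.12 ± 0.07 and 0.10 ± 0.08, of Smad5 -0.03 ± 0.07 and 0.07 ± 0.08, and of the shared partner Smad4 0.04 ± 0.07 and 0.12 ± 0.07, in males and females (limma adjusted p = 0.5 and 0.8, 0.86 and 0.9, and 0.8 and 0.69). The third receptor-activated SMAD, Smad9, chosen for mention after its values were seen, averaged 36.2 ± 11.2 normalized counts in deprived males against 41.4 ± 9.10 in watered males, and 42.8 ± 9.97 in deprived females against 73.2 ± 17.1 in watered females (SD). Its log2 changes were -0.23 ± 0.21 in males and -0.75 ± 0.23 in females (limma adjusted p = 0.63 and 0.14), with overlap in both. Smad9 was, without the 4 libraries, the 1 gene called lower in females, at -0.93 ± 0.19 (limma adjusted p = 0.0036), and was 0.01 ± 0.17 in males (limma adjusted p = 0.99). Among secreted antagonists, Nog (noggin) changed by -0.36 ± 0.28 in males and 0.19 ± 0.31 in females at a level of 17.3 to 24.8 in the group means, and Chrd (chordin) by -0.01 ± 0.09 and 0.04 ± 0.10 (limma adjusted p = 0.58 and 0.95, and 0.97 and 0.98).

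Between the sexes more of the same 82 genes were called, as were more of all tested genes. In deprived mice 5 were higher and 26 lower in males (33.1% called over all genes), and in watered mice 7 were higher and 23 lower (30.5% over all genes). Medians of the log2 difference were -0.15 in deprived and -0.11 in watered mice, beside -0.02 and -0.02 over all genes. Smad1 was lower in males, by -0.30 ± 0.08 in deprived and -0.32 ± 0.07 in watered mice (limma adjusted p = 0.0031 and 0.0017), as was Smad5, by -0.29 ± 0.07 and -0.19 ± 0.07 (limma adjusted p = 0.003 and 0.045). Chrd was higher in males, by 0.24 ± 0.09 in deprived and 0.29 ± 0.09 in watered mice (limma adjusted p = 0.05, just under the threshold before rounding, and 0.017).

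Markers of cell types moved with some of these differences. The 9 endothelial markers summed to between 15062 and 17188 normalized counts in deprived females, against 12867 to 14745 in watered females. All 9 had positive log2 changes in females, with a median of 0.21 and 0 called by limma, 5 having an unadjusted p below 0.05, while without the 4 libraries 5 were called higher. The 9 stromal and smooth muscle markers summed to between 7229 and 9454 in deprived females against 5342 to 7540 in watered females, with 2 called higher, and 4 without the 4 libraries. The 9 proximal tubule markers summed to 231784 to 290589 in deprived females against 279224 to 312776 in watered females, with a median log2 change of -0.11 and 2 called lower. Over all tested genes limma called 0.790% in females and 0.227% in males, and 4.21% and 0.807% without the 4 libraries. In males the stromal sums were 5665 to 6956 in deprived and 6087 to 7954 in watered mice, with a median of -0.10. In males the endothelial sums were 12308 to 13977 in deprived and 11765 to 13907 in watered mice, and no marker of either list was at 0 in any library. The principal cell markers, which include Aqp2 and Aqp3, summed to 20748 to 28456 in deprived males against 15296 to 17105 in watered males, and to 23833 to 27588 in deprived females against 17482 to 23567 in watered females, beside the higher Grem1. Of the 7 principal cell markers tested, 2 had positive log2 changes in males (median -0.03) and 3 in females (median -0.14). Aqp2 and Aqp3 were called higher, by 0.92 ± 0.11 and 0.67 ± 0.07 in males and by 0.74 ± 0.12 and 0.42 ± 0.07 in females, and Hsd11b2, which inactivates glucocorticoids, was called lower in females, by -0.28 ± 0.07 (limma adjusted p = 0.044). The part of these in the member results was not tested.

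Beside the lower Id1, Id3, Id4, Smad6 and Bmp4 of watered males, all 7 podocyte markers were lower in males. In deprived mice the differences of Id1 and Id3 were -0.14 ± 0.19 and 0.01 ± 0.17. The median log2 difference of the podocyte markers was -0.55 in deprived and -0.49 in watered mice. Their sums were 7312 to 8086 in watered males and 9051 to 10341 in watered females. Endothelial markers were called lower in males in 8 of 9 cases in deprived and 3 of 9 in watered mice. Over all tested genes 33.1% and 30.5% were called in either direction, so the watered count is near that share. The proximal tubule markers summed to 337813 to 398152 in watered males against 279224 to 312776 in watered females. Of these 9 markers, 5 were higher in watered males and 4 in deprived males, with medians of 0.04 and -0.10. In watered mice medians were also negative for intercalated cell (-0.32), distal convoluted tubule (-0.31) and principal cell (-0.30) markers. They were -0.23 for the thick ascending limb and -0.12 for urothelium, but 0.05, 0.08 and 0.21 for stromal, immune and adipocyte markers. The part of these in the sex differences was not tested.

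Genes whose pattern over the 24 libraries was most like that of Grem1 were sought by Pearson's r among 11812 named genes with a mean of at least 50. Those with a high r included Aqp3, a water channel of the collecting duct (0.817), Mcoln3, a lysosomal cation channel (0.801), Tmem204 (0.778) and Pappa, a protease that cleaves insulin-like growth factor binding proteins (0.758). The lowest were Rhbg, an ammonium transporter (-0.752), Ppp1r7 (-0.74), the long non-coding RNA Neat1 (-0.739), the ligand Wnt9b (-0.714) and the clock gene Per3 (-0.696). Within groups, after removal of the group means, r with Grem1 was -0.186 for Aqp3, 0.294 for Mcoln3, 0.117 for Tmem204 and 0.108 for Pappa. It was -0.426 for Rhbg, -0.357 for Ppp1r7, -0.223 for Neat1, -0.418 for Wnt9b and -0.159 for Per3.

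Of 11811 genes compared with Id1, Id3 stood first (0.914), followed by Nfe2l2, which encodes the antioxidant regulator NRF2 (0.878), Id4 (0.871), the glucagon receptor gene Gcgr (0.868) and Decr2, a peroxisomal fatty acid enzyme (0.859). The lowest were Plod1, a collagen lysyl hydroxylase (-0.833), Gna13, a G protein subunit (-0.832), Trim25, a ubiquitin ligase (-0.806), Agfg1 (-0.806) and Heca (-0.803). Within groups r with Id1 was still 0.901 for Id3, 0.74 for Nfe2l2 and 0.75 for Id4. These correlations describe libraries that share groups, sex and the 4 libraries that stand apart. With Grem1 the r of the other members ran from -0.458 (Id1) to -0.055 (Bmp4).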

How the data were processed

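The authors deposited 1 table of size-factor normalized counts, a signal on a linear scale, for 19399 genes in 24 kidney libraries. Tools in the submitters' processing notes are DESeq2, Subread with featureCounts, and Trim Galore, with mm10 as build and no versions. For the aligner, the annotation and strandedness, the answer is not given in the sources used here. All values lay within 0.01 read of whole multiples of 1 step per library, so whole reads were recovered for DESeq2 1.42.0 and edgeR 4.0.16 as alternatives. Genes with fewer than 100 reads in all were absent from the table.

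Values were fitted as log2(value + 1) by limma 3.58.1 (R 4.3.3), using 1 coefficient per group, trended and robust prior variance, and all libraries in 1 fit. Tested were the 17592 genes that reached 10 in 5 or more libraries, with Benjamini-Hochberg adjustment, called below 0.05. Each library is 1 mouse. Fits without libraries kept these genes, a choice made after counts without it were seen. The fit was tested on simulated data. Correlations used exact two-sided permutation tests. Coordinates are from GENCODE M21 (GRCm38), which held 19300 of the gene identifiers. Further alternatives were other pseudocounts, filters, scaling by TMM, weights per library, a replicate block, each sex alone, the other label of deprived female 5, and leaving out libraries.

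The members, lists, motifs and tests were chosen with earlier results of these data known. Named genes were the members, other pathway genes called in a deprivation contrast, Nog, Chrd, Bmpr1a, Bmpr2, Smad1, Smad4, Smad5, and the 5 highest and 5 lowest r with Grem1 and Id1. Not every gene this rule takes is reported here, but all of them are in the counts.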

Additional observations from a re-analysis of the deposited data

Results flagged for a closer look

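In each group of 5 to 7 mice the highest and lowest value of each member was compared with its nearest neighbour by Dixon's ratio of that gap to the range of the group. Of 36 groups checked 7 exceeded the 95% limit, where chance gives about 1 in 20, and 6 of these 7 values belong to the 4 libraries that stand apart. Some mice were flagged for more than 1 member, so the 7 flags are not independent of each other.

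Deprived male 7 had 680.3 normalized counts of Id1, against 252.8 to 357.1 in the other deprived males (ratio 0.756). The same mouse had 1504 of Id3, against 746.1 to 937.6 (ratio 0.747), and 932.2 of Smad7, against 543 to 662 (ratio 0.694). Deprived female 1 had 4990 of Id2, against 3542 to 3729 in the other deprived females (ratio 0.871), and 1382 of Id4, against 882.7 to 977.3 (ratio 0.81). Watered female 6 had 1140 of Bmp4, against 905.6 to 969.5 in the other watered females (ratio 0.728). Deprived female 3, which does not stand apart, had 600.7 of Smad7, against 752.3 to 781.3 (ratio 0.84).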

How the results depend on the processing

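No member changed direction among called values under any alternative run. Every count of members below comes from a contrast that helped to choose them or includes Id1 or Id4, so nothing is read from these counts. Of the 9 members, the number called in females was 3, and 5 with weights per library, with the replicate block and without the 4 libraries, but 0 with deprived female 5 counted as watered. In males it was 1, and 2 with weights and without the 4 libraries. For the mean it was 2, and 6 with weights and without the 4 libraries, 4 with the block and 1 with deprived female 5 as watered. For the male minus the female response it was 0, and 1 with weights and without the 4 libraries. Between deprived males and females it was 4, and 2 with deprived female 5 as watered.

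Of the other 82 pathway genes 1 was called in females, and 2 with DESeq2 and with the block, 5 with weights, 3 without the 4 libraries and 0 with deprived female 5 as watered (limma, 6 having an unadjusted p below 0.05 in the main fit of 24 libraries). In males 1 was called, and 2 with DESeq2, with weights and without the 4 libraries. For the mean 1 was called, and 2 with DESeq2, 5 with weights and 6 without the 4 libraries. Over all genes 139 were called in females, and 2 with deprived female 5 as watered, 364 with DESeq2, 1003 with weights and 741 without the 4 libraries. In males 40 were called, and 157 with DESeq2, 11 with each sex alone, 64 with the block, 133 with weights and 142 without the 4 libraries.

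Leaving out each library in turn gave 2 to 4 members called in females, 2 to 3 for the mean, 3 to 5 between watered males and females (3 without watered female 5) and 2 to 4 between deprived males and females (2 without deprived male 6 or deprived female 5). Of the other pathway genes it gave 1 to 2 in females, 1 to 2 in males, 22 to 30 between watered and 20 to 30 between deprived males and females. Over all genes it gave 66 to 215 in females (lowest without watered female 2, highest without deprived male 7), 22 to 65 in males (watered male 3, deprived male 3), 169 to 330 for the mean, and 0 to 3 for the male minus the female response. The Id1 call in females was lost in 6 such fits, without watered females 1, 2 and 5 and deprived females 2, 3 and 5. Grem1 and Id4 were called in females in all 24, while Id2 and Id3 were gained there in 1 fit each, without deprived male 7 and deprived female 1. As the deprivation contrasts helped to choose the members, a member call that persists in these fits is no support for it. The causes of the changes in calls were not tested.

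Mice of the same number were not treated as paired in the main fit. Numbers, here and in the replicate block, are those of the titles, and the library codes number some deprived females otherwise. The median correlation of deviations from group means was 0.031 for mice of the same number, against 0.005 for other numbers. Of 24 mice 5 correlated best with their own number, and for the 3 mice of number 6 r ran from 0.059 to 0.45. Such correlations cannot tell whether mice were paired. Grem1 had 1 to 10 reads in watered mice, so depth limits its fold change. The SE given for it comes from the spread among mice in the limma fit, and not from counting error alone.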
